A study of Mus musculus with 8 samples.

Results

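Retnla, Clec10a, Mgl2, Arg1 and Chil3 are mouse genes that interleukin 4 (IL-4) switches on in macrophages, and they are widely used as markers of the alternatively activated, or M2, state. They were found on the array as the probe sets annotated with 1 of these symbols alone, which gave 5 probe sets, 1 for each of the 5 genes. A further probe set that is annotated with both Chil3 and Chil4 was left out. The table held 18193 genes with such a probe set. All but Chil3 were bright enough to be tested, so 4 of the 5 were among the 11232 genes tested. RNA came from epididymal fat, a visceral depot next to the testis, of 8 male C57BL/6J mice, 1 array per mouse and 2 mice per group. Chow mice had 10% of their calories from fat, and the other 3 groups ate a high-fat diet (HFD) with 30%, in both cases for 24 weeks from the age of 6 weeks. For the next 5 weeks the HFD mice received telmisartan (3 mg/kg/day), candesartan (3 mg/kg/day) or no drug, with the drugs in drinking water and both doses approximate. No allele, transgene or cell sort was involved, so every value is from whole tissue with all its cell types, and the sources describe the replicates as separate mice.

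IL-4 and its relative interleukin 13 bind receptors that share the IL-4 receptor alpha chain. Janus kinases on the receptor then phosphorylate the transcription factor STAT6, which moves to the nucleus and binds the control regions of genes such as these. In lean fat, eosinophils and innate lymphoid cells are known sources of the cytokines, and obesity is known to bring in macrophages of another kind that carry CD11c and take up lipid. Retnla encodes the small secreted protein RELM-alpha (FIZZ1). Clec10a and Mgl2 encode the galactose-binding lectins MGL1 (CD301a) and MGL2 (CD301b), which sit on macrophages and on some dendritic cells. Arg1 encodes arginase 1, which splits arginine into ornithine and urea, and Chil3 encodes the secreted chitinase-like protein Ym1. In the gene table Clec10a and Mgl2 are immediate neighbours on chromosome 11, while Retnla lies among its relatives Retnlb and Retnlg on chromosome 16, and Chil3 between Chia1 and Chil4 on chromosome 3.

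Promoters are shown for Retnla and Mgl2, the 2 genes whose signal fell with the diet. RefSeq (GRCm38.p6) gave the 300 bases from 250 before to 50 after the start of each gene for 3 of the 5 genes (Retnla, Mgl2 and Chil3). Capitals mark matches to the STAT6 pattern (TTC, any 4 bases, GAA) and to the C/EBP pattern TTGCNNAA, each searched on both strands. Retnla is read from the plus strand at chr16:48842359-48842658, and Mgl2 from the plus strand at chr11:70130107-70130406.
Retnla: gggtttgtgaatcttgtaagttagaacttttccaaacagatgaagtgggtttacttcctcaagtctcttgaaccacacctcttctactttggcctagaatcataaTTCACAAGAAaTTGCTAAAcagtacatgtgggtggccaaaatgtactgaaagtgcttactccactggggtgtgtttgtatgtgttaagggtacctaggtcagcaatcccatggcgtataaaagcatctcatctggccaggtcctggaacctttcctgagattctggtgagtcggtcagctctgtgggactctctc
Mgl2: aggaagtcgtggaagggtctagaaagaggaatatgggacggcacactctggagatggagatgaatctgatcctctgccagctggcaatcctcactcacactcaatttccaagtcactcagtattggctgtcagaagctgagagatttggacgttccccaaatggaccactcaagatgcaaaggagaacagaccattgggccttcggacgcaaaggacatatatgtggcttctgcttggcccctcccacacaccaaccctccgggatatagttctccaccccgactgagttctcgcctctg
The Retnla window held 1 match to the STAT6 pattern, at bases -145 to -136 from the start, and 1 match to TTGCNNAA right after it, at -134 to -127. The 2 matches do not overlap. It also held 1 match to GAGGAAG, a core of the kind bound by PU.1, and 1 match to TATAAA, the letters of a TATA box, at -30 to -25. Neither of the capitalised patterns was in the Mgl2 window, nor were TATAAA and GAGGAAG. The Chil3 window held 1 match to the STAT pattern of shorter spacing (TTC, any 3 bases, GAA), at -172 to -164, and 1 to TATAAA, at -3 to 3. Of 32851 promoter windows of this length, 6.95% held the STAT6 pattern, 8.3% the STAT pattern of shorter spacing, 10.8% TTGCNNAA, 13.6% GAGGAAG and 13.6% TATAAA. These matches describe the letters of the windows and were not tested as binding sites.

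Signals are linear values after each array was brought to the same trimmed mean, which ranged from 178 to 265 beforehand. The adipocyte marker Adipoq stood at 15423 to 18324 on the 8 arrays, and 0 of the 7 epididymis genes found on the array were bright enough to be tested. The 2 telmisartan arrays stood furthest apart (SD of the log2 difference between replicates 0.484, against 0.445 for chow, 0.314 for candesartan and 0.273 for HFD). The macrophage gene Adgre1, which encodes F4/80, was at 1743 on telmisartan array 1 and at 3503 on array 2, and the adipocyte hormone gene Retn at 13723 and 6134.

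In HFD against chow, the question was what the diet did to these markers, and they did not move together. Retnla fell 2.99-fold and Mgl2 3.01-fold, Clec10a was level with chow, and Arg1 and Chil3 lay higher without passing the test or without being tested. By limma over all genes, 2 of the 4 tested genes were called lower and 0 higher at an adjusted p under 0.05, where 2.95% of all genes were called lower and 8.09% were called in either direction. Arrays of 3 of the 4 did not overlap between the groups, and those of 58.1% of all genes did not. The median log2 difference of the 4 was -0.79, and that of all genes was -0.013. In whole tissue, fewer cells of a type and less RNA per cell cannot be told apart.

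The signal of Retnla was 10882 and 11626 on the chow arrays and 4700 and 3004 on the HFD arrays. On the telmisartan arrays it was 8221 and 6351, and on the candesartan arrays 4280 and 3217. Both chow arrays lay above all others, both telmisartan arrays lay between chow and the remaining 4, and HFD and candesartan overlapped. HFD was 1.58 lower than chow on the log2 scale (95% CI -2.10 to -1.06, adjusted p 0.00514 by limma), from 11254 ± 526 to 3852 ± 1199 (SD, n = 2 each). Leaving out any 1 array kept the call (adjusted p 0.00245 to 0.0446, difference -1.90 to -1.26). It was lost only when dim probe sets were kept in the test (adjusted p 0.0796).

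The signal of Mgl2, the lectin CD301b, was 568 and 563 on the chow arrays and 210 and 169 on the HFD arrays. Telmisartan array 1 was at 543, close to chow, and telmisartan array 2 at 224, while the candesartan arrays were at 152 and 138. The groups chow, HFD and candesartan did not overlap each other, and candesartan was the lowest. HFD was 1.59 lower than chow on the log2 scale (95% CI -2.38 to -0.80, adjusted p 0.0299 by limma). The call ended when either array of chow, HFD or candesartan was left out (adjusted p 0.0607 to 0.197), with dim probe sets kept (0.153) and without the variance trend (0.0547), while the difference stayed between -1.74 and -1.43.

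The neighbouring lectin gene Clec10a gave another picture. Its signal was 1238 and 1531 on the chow arrays, 1607 and 1176 on the HFD arrays, 2037 and 2463 on the telmisartan arrays and 1325 and 1506 on the candesartan arrays. Both telmisartan arrays lay above the other 6, which all overlapped. The log2 difference of HFD from chow was 0.00 (95% CI -0.43 to 0.43, adjusted p 0.996 by limma), and its sign turned under quantile normalization (0.03) and without chow array 2 (0.15) or HFD array 2 (0.22). A change of more than 0.43 in either direction thus lay outside the interval.

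Arg1 and Chil3 were dim. The arginase gene Arg1 was at 9.46 and 65.9 on the chow arrays, 67.9 and 78.5 on the HFD arrays, 79.2 and 128 on the telmisartan arrays and 66.6 and 105 on the candesartan arrays. Chow array 1 stood far below the other 7, and chow array 2 just below the lowest of the treated and HFD arrays. The log2 difference of HFD from chow was 1.55 (95% CI -0.17 to 3.27, adjusted p 0.255 by limma). That value rests on 1 chow array. Dropping chow array 1 gave 0.15 (adjusted p 0.885), and dropping the other gave 2.95 (0.0125).

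Chil3 was below the filter on dim probe sets, which corresponds to a signal of 40.45. Its signal was 20.8 and 25.5 on the chow arrays, 37.4 and 40.9 on the HFD arrays, 64.5 and 23.6 on the telmisartan arrays and 44.4 and 30.9 on the candesartan arrays. The HFD and candesartan arrays lay above both chow arrays, whereas the telmisartan arrays spanned nearly all the others. The log2 difference of HFD from chow was 0.77, and a fit with no filter gave it an adjusted p of 0.515 by limma.

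**Figure D1:**
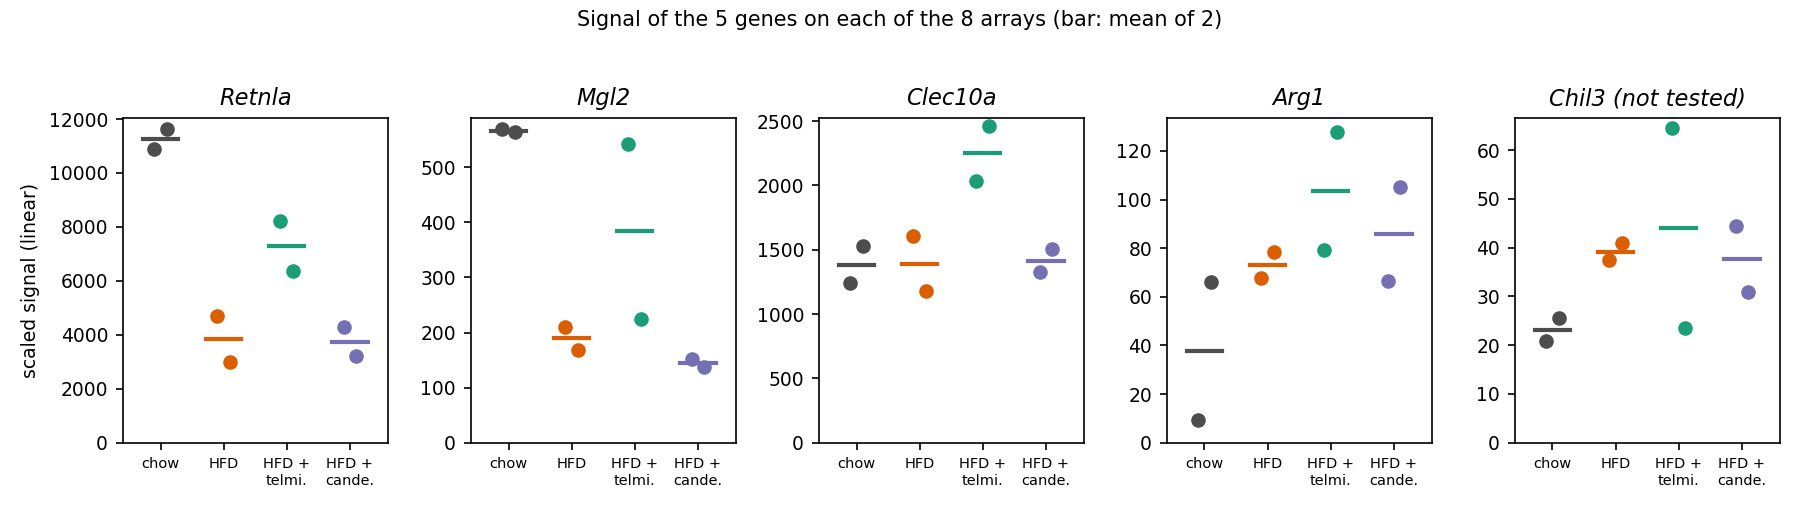
Scaled signal (linear axis from 0, a separate scale per panel) of Retnla, Mgl2, Clec10a, Arg1 and Chil3 on the 8 arrays, with 2 points and their mean as a bar in each of the 4 groups. Retnla and Mgl2 are highest in chow, both telmisartan arrays of Clec10a (2037 and 2463) are above all others, and chow array 1 of Arg1 (9.46) is far below the rest.

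Macrophage genes moved the other way over the same arrays. In HFD against chow, 5.15% of all genes were called higher and 2.95% lower, which is the background for this list and those below. Of the pan macrophage genes 22 were tested, and 19 of them rose with HFD and 0 fell (median log2 difference 1.41, against -0.013 for all genes). Among them the lectin Lgals3 rose by 1.82, the endosomal protein gene Cd68 by 2.36, the surface receptor Cd84 by 2.94 and Adgre1 by 2.04 on the log2 scale (adjusted p 0.000536 to 0.00481 by limma). The call of Adgre1 ended without either HFD array (adjusted p at most 0.0536). The count of rises was 12 without chow array 1, 10 without either HFD array and 6 with dim probe sets kept. The mean log2 signal of the 22 genes was 9.59 and 9.81 on the chow arrays, 11.21 and 11.23 on the HFD arrays, 10.85 and 11.59 on the telmisartan arrays and 11.03 and 11.28 on the candesartan arrays.

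Set against that mean on the same array, Retnla, Mgl2 and Clec10a were all lower in HFD. Retnla minus the macrophage mean was 3.82 and 3.70 on the chow arrays and 0.99 and 0.32 on the HFD arrays, a difference of -3.10 on the log2 scale. Mgl2 minus that mean went from -0.44 and -0.67 to -3.50 and -3.83, a difference of -3.11. Clec10a, whose own signal was level, went from 0.68 and 0.77 to -0.56 and -1.03, a difference of -1.52. The macrophage mean itself stood 1.51 and 1.53 above its chow level on the HFD arrays, so any gene with a level signal comes out lower on this scale. Arg1 differed by 0.03, but the chow arrays stood at -6.35 and -3.77. These differences describe unequal change between probe sets of 1 array, carry no test, and do not say which cells made the RNA.

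**Figure D2:**
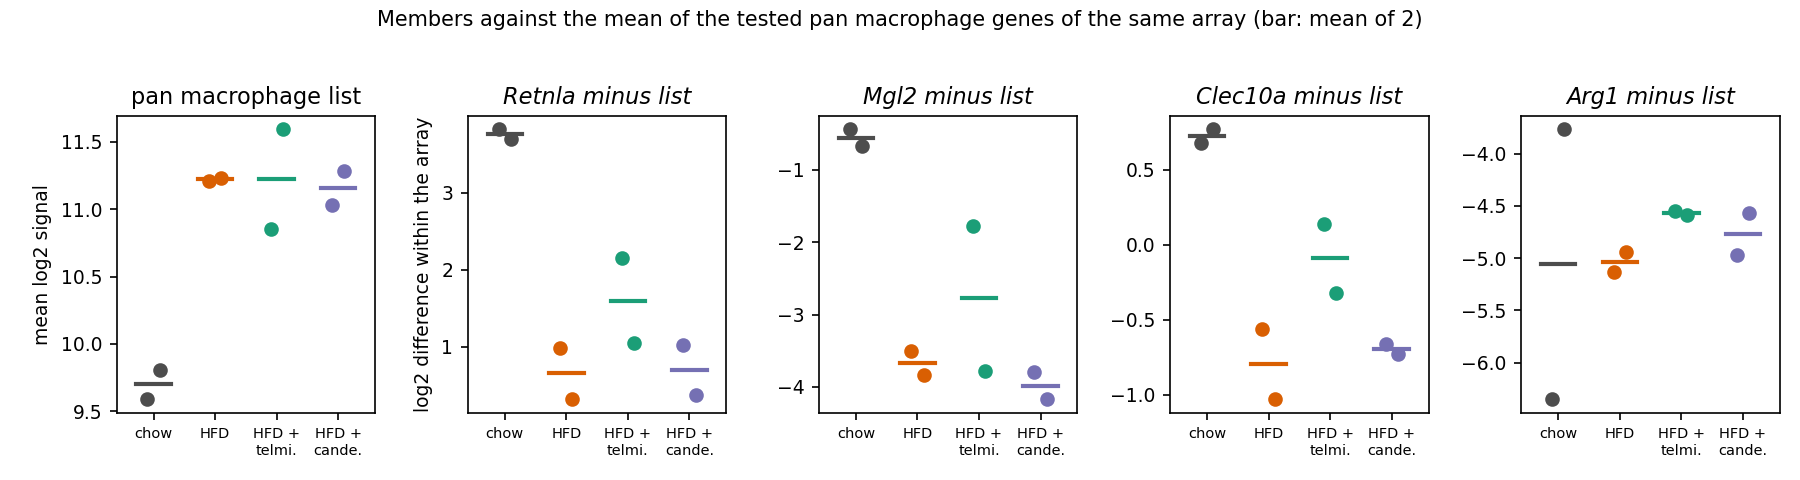
The left panel shows the mean log2 signal of the 22 tested pan macrophage genes on each array, and the other panels the log2 signal of Retnla, Mgl2, Clec10a and Arg1 minus that mean (2 points and their mean per group, a separate scale per panel). The macrophage mean is lowest in chow (9.59 and 9.81), where Retnla, Mgl2 and Clec10a relative to it are highest.

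Of 14 listed genes of IL-4 and IL-13 signalling, 10 could be tested, and 2 rose and 0 fell with HFD, where 5.15% of all genes were called higher and 2.95% lower. The log2 differences of all 10 were above 0, from 0.10 to 4.46 (median 0.47), and those of 9 of them were with median centring and without scaling. Il13ra2, a decoy receptor of interleukin 13, rose by 4.46 (95% CI 3.39 to 5.54, adjusted p 0.00147 by limma), from 5.48 and 21.0 on the chow arrays to 270 and 253 on the HFD arrays, with 1 chow array at the floor. The phosphatase gene Ptpn6 rose by 1.23 (adjusted p 0.0197), but this was lost on leaving out any chow or HFD array, so that the count of rises was then 1. Averaging the probe sets of each gene brought Ptpn6 to 0.65 (adjusted p 0.11). With dim probe sets kept the count was 0. Il13ra1 was 0.59 higher (0.148), Il4ra 0.10 (0.871) and Stat6 0.14 (0.655). Il4 and Il13 themselves were too dim to be tested, at 1.84 to 18.6 and 0.802 to 15.4 over the arrays, so the supply of the cytokines was not measured here. Il4ra, Stat6, Il4 and Il13 were picked with their values known.

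Of 27 other IL-4-responsive macrophage genes, 20 could be tested, and 4 rose and 2 fell (median 0.24). Over all genes 5.15% were called higher and 2.95% lower. The transcription factor gene Egr2 rose by 2.85, Il1rn, which encodes the interleukin 1 receptor antagonist, by 2.67, and the kinase gene Matk by 2.48. The transglutaminase gene Tgm2 rose by 0.48 (adjusted p 0.026). The chemokine gene Ccl24 fell by 1.59 (95% CI -2.19 to -0.99, adjusted p 0.00981 by limma), and Pparg, the fat cell regulator, by 0.81 (0.0333). The signal of Ccl24 went from 296 and 394 on the chow arrays to 116 and 111 on the HFD arrays, nearly the same log2 difference as Retnla and Mgl2. Tgm2, Ccl24 and Pparg were picked with their values known. The mannose receptor gene Mrc1 was at 1085 and 1771 on the chow arrays and at 2353 and 1877 on the HFD arrays (log2 difference 0.60, 95% CI -0.13 to 1.33, adjusted p 0.295). The chemokine genes Ccl17 and Ccl22 were not bright enough to be tested. The count of falls was 0 without either HFD array or with dim probe sets kept, and 1 without either chow array. The count of rises was 2 without HFD array 2.

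Genes of arginine handling other than Arg1 were not called: of 7 tested, 0 rose and 0 fell (median 0.04), with Nos3 at -0.56 (adjusted p 0.179), Oat at -0.25 (0.279) and Slc7a2 at 0.50 (0.341). Arg2 and Nos2, which compete with Arg1 for arginine, were not bright enough. Of 10 paralogs of the 5 genes, only Retn could be tested. It was at 13598 and 13601 on the chow arrays and at 6980 and 6656 on the HFD arrays (log2 difference -1.0, 95% CI -1.76 to -0.24, adjusted p 0.109 by limma). Retn passed without either telmisartan array, and in 2 of 13 alternatives with all arrays kept. Among the rest the mean over the 8 arrays was 1.62 for Retnlb, at the floor on every array, 10.3 for Chil4 and 13.4 for Arg2.

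Markers of the cells that could carry these genes moved in several ways, and their part in the results was not tested. Of 16 resident macrophage genes, all tested, 0 rose and 5 fell with HFD (median -0.79, with 2.95% of all genes called lower). These were the lectin genes Cd209g (fell by 2.21), Cd209d (by 2.50) and Cd209f (by 1.84, picked with its value known), the hyaluronan receptor gene Lyve1 (by 1.52) and the scavenger receptor gene Cd163 (by 1.68, adjusted p 0.0204 by limma, lost when chow array 2 or HFD array 2 was dropped). The count of falls was 3 without chow array 2, 0 without HFD array 2 or with dim probe sets kept, and 9 without either telmisartan array. The remaining genes of the resident macrophage list were not called and went both ways. Stab1 was at 0.79, Mrc1 at 0.60 and Folr2 at 0.48, whereas Cd209b was at -1.76, Timd4 at -0.97 and Cbr2 at -0.93. All of these but Mrc1 were picked with their values known. Of 13 genes of CD11c and lipid-laden macrophages tested, 10 rose and 0 fell (median 2.04, with 5.15% of all genes called higher). Atp6v0d2, Mmp12 and Gpnmb were each more than 5 higher on the log2 scale. The summed signal of the resident list was 33822 and 36087 in chow, 29466 and 27522 in HFD, 34642 and 36867 with telmisartan, and 28812 and 29308 with candesartan. The chemokine gene Ccl8, picked with its values known, was at 4554 and 8192 on the telmisartan arrays and at 1532 to 2712 on the others. Without it the sums were 31256 and 33871 in chow, 27275 and 25989 in HFD, 30087 and 28675 with telmisartan, and 26100 and 27713 with candesartan, so that chow was the highest. Mgst1, picked with its values known, was the brightest gene of the list and weighs most in these sums. It was at 11668 and 12280 in HFD and at 14629 and 12347 with telmisartan. The sums therefore do not show how the list as a whole differed between these groups. In telmisartan against chow 4 genes of the list fell (Lyve1, Timd4, Cd209f and Cd209g) and 1 rose (Ccl8), with a median of -0.52. Over all genes 3.48% were called lower and 4.96% higher in that comparison. In candesartan against chow 7 genes of the list fell and 0 rose (median -0.80), where 2.11% of all genes were called lower and 4.48% higher.

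Dendritic cells carry Mgl2 and Clec10a. Of 9 dendritic cell genes tested, 2 rose and 0 fell (median -0.04): Cd83 by 2.31 and Irf8 by 1.20, both of which other immune cells express too. This count was 0 without either HFD array and 1 without either chow array. The lectin gene Cd209a was at 278 and 266 on the chow arrays and at 111 and 94.3 on the HFD arrays (log2 difference -1.41, adjusted p 0.0623 by limma). Cd209a passed without either telmisartan array, and in 3 of 12 alternatives with all arrays kept. Flt3, a defining gene of the lineage, was too dim to be tested, at 14.8 to 54.9. Of 5 neutrophil genes tested, 0 rose and 0 fell (median 0.18), with Mmp9 at -1.61, Csf3r at 1.02 and S100a8 at 0.62 (adjusted p 0.078 to 0.263). Mmp9 and Csf3r passed without either telmisartan array, and S100a8 without chow array 1. With all arrays kept, Mmp9 also passed in 1 of 12 alternatives. Of the eosinophil list 0 of 10 genes could be tested, and the 7 on the array summed to 128 and 109 in chow, 50.7 and 77.3 in HFD, 117 and 116 with telmisartan, and 57.4 and 99.4 with candesartan. Of these 7 dim genes Alox15, which is also in the list of IL-4-responsive macrophage genes, was at 56.0 and 42.9 in chow and at 4.46 and 8.26 in HFD. Without it the sums were 71.7 and 66.2 in chow and 46.3 and 69.0 in HFD, which overlapped.

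Of 11 listed genes of type 2 lymphoid cells 3 could be tested, and Gata3, Il1rl1, Il5 and Il13 were not among them. Only Il7r rose (by 4.03, adjusted p 0.00175 by limma, and 0.0542 with dim probe sets kept), and Klrg1 and Rora were at -0.44 and 0.12. A rise of Il7r alone does not show a change in these cells. Of 6 mast cell genes 1 rose, Cpa3 by 1.61 (adjusted p 0.0491 by limma, lost in 10 of 21 alternatives). Cma1 was at 1.11 and Mcpt4 at 1.01, and both passed without either telmisartan array. With all arrays kept, Cma1 also passed in 3 and Mcpt4 in 5 of 13 alternatives. Of 9 adipocyte genes 2 fell, Pparg and the glucose transporter gene Slc2a4 (by 1.70). The call of Slc2a4 ended without HFD array 1, and that of Pparg when any chow or HFD array was dropped. With all arrays kept, the call of Slc2a4 also ended in 1 and that of Pparg in 3 of 13 alternatives. Of 8 mesothelial genes 0 rose and 0 fell, with Krt8 at -0.71, Krt19 at -0.51 and Krt18 at -0.31.

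In telmisartan against HFD, the question was whether telmisartan moved these markers in obese fat. All 4 tested genes lay higher with telmisartan and their scaled arrays did not overlap those of HFD, but none passed the test. For Arg1 the gap was only 79.2 against 78.5. Overlap was not counted without scaling, and the trimmed mean beforehand was 178 on telmisartan array 2 and 248 on HFD array 1. In the alternatives with all arrays kept, the log2 differences were 0.71 to 1.22 for Retnla, 0.48 to 0.98 for Clec10a, 0.66 to 1.16 for Mgl2 and 0.23 to 0.74 for Arg1. limma called 0 of 11232 genes (0%), and 696 had an unadjusted p under 0.05. Arrays that do not overlap on the higher side made up 18.5% of all genes. The median log2 difference of the 4 was 0.80, and that of all genes -0.008.

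Retnla was 7286 ± 1322 with telmisartan against 3852 ± 1199 with HFD (SD, n = 2 each), a log2 difference of 0.94 (95% CI 0.43 to 1.46, adjusted p 0.766 by limma). Without telmisartan array 1 it was 0.76 and without array 2 it was 1.13, and the lowest value, 0.62, came without HFD array 2. Clec10a was 2250 ± 301 against 1391 ± 305, a log2 difference of 0.70 (95% CI 0.28 to 1.13, adjusted p 0.766), at 0.84 and 0.57 without either array in turn. For Mgl2 the difference was 0.89 (95% CI 0.10 to 1.68, adjusted p 0.766), and telmisartan array 1 decided it: without that array it was 0.25, and without array 2 it was 1.53. Arg1 was at 0.46 (95% CI -1.26 to 2.18, adjusted p 0.89), at 0.81 without telmisartan array 1 and at 0.12 without array 2. Chil3 was at 0.00, with its telmisartan arrays on both sides of HFD.

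Relative to the macrophage mean of the same array, Retnla stood at 2.15 and 1.05 with telmisartan, above both HFD arrays (0.99 and 0.32). Clec10a stood at 0.14 and -0.32, also above both. Mgl2 stood at -1.77 on telmisartan array 1 and at -3.78 on array 2, within the HFD range of -3.83 to -3.50. The same array 1 had the lower macrophage mean (10.85 against 11.59) and the lowest sum of the mesothelial list (819, against 1812 to 3773 on the other arrays), and whether these bear on the differences was not tested. Of the 16 resident macrophage genes 0 were called in telmisartan against HFD (median 0.18), with values on both sides of 0, such as 0.76 for Cd163, 0.81 for Cd209g, -0.05 for Lyve1 and -0.41 for both Timd4 and Stab1. Timd4 and Stab1 were picked with their values known. Adgre1 was at -0.09 (95% CI -0.74 to 0.56).

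In candesartan against HFD, a drug of the same class gave values near those of HFD. limma called 0 of 11232 genes (0%), with 140 at an unadjusted p under 0.05. The log2 difference was -0.02 for Retnla (95% CI -0.53 to 0.50), 0.04 for Clec10a (-0.39 to 0.47), -0.38 for Mgl2 (-1.17 to 0.41) and 0.20 for Arg1 (-1.52 to 1.92), each with an adjusted p of 1. The signs of Retnla, Clec10a and Arg1 turned when single arrays were left out, and that of Retnla also with median centring (0.14) or no scaling (0.01). Only Mgl2 had arrays that did not overlap, on the lower side, where 15.5% of all genes had them. Chil3 was at -0.08.

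Telmisartan and candesartan both block the angiotensin II type 1 receptor and share a biphenyl-benzimidazole core. Telmisartan carries a carboxylic acid on the biphenyl, in the place of the tetrazole of candesartan, and a second benzimidazole. They were given at the same stated dose for the same time, so their groups were compared directly, as 1 pair of compounds. Since both were given on HFD, it tests whether their effects differed. Retnla was 0.96 higher with telmisartan than with candesartan on the log2 scale (95% CI 0.44 to 1.48), Mgl2 1.27 higher (0.48 to 2.06) and Clec10a 0.67 higher (0.24 to 1.09), each with an adjusted p of 0.924 by limma. Both telmisartan arrays of these 3 genes lay above both candesartan arrays, where 15.6% of all genes did. Arg1 was at 0.27 (95% CI -1.46 to 1.99, adjusted p 0.97) and its arrays overlapped. No gene in the table passed this test (0%), with 550 at an unadjusted p under 0.05, and the difference of Mgl2 was 0.63 without telmisartan array 1 and 1.91 without array 2. In the same order it was 0.78 and 1.15 for Retnla, 0.80 and 0.53 for Clec10a and 0.61 and -0.08 for Arg1. Intervals this wide do not show that the drugs acted alike on Arg1, nor does the missed threshold show it for the other genes.

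**Figure D3:**
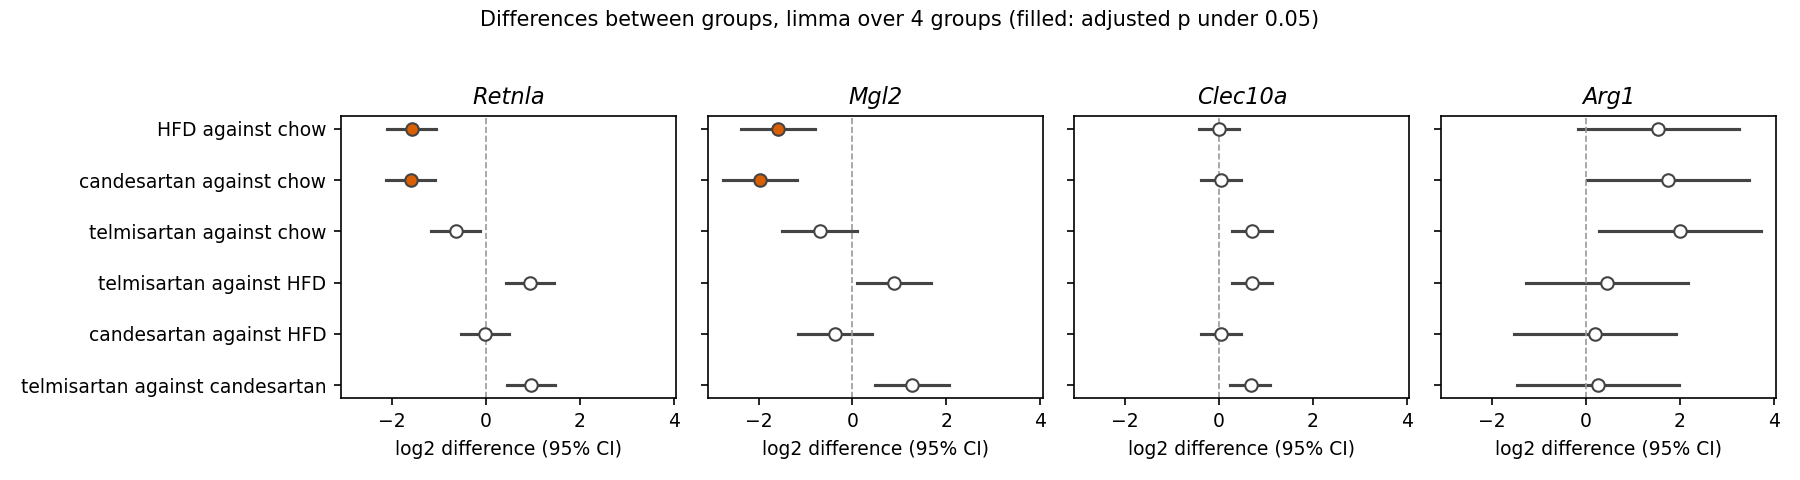
Log2 differences (points) with 95% confidence intervals (lines) of Retnla, Mgl2, Clec10a and Arg1 in the 6 comparisons, from limma over 4 groups of 2 arrays. Filled points mark an adjusted p under 0.05: Retnla and Mgl2 in HFD and in candesartan against chow, while their telmisartan values against chow (-0.64 and -0.70) are open and nearer to 0.

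The treated groups were also set against chow, the lean state. These comparisons share the chow arrays with HFD against chow and are not independent of it. With candesartan, Retnla was 1.60 lower than chow (95% CI -2.12 to -1.08, adjusted p 0.00552 by limma) and Mgl2 1.97 lower (-2.76 to -1.18, 0.0147), so that 2 of 4 fell, where 2.11% of all genes were called lower and 6.59% in either direction. Arrays of 3 of the 4 did not overlap, and those of 53.7% of all genes did not. The Mgl2 call ended without either chow or either candesartan array (adjusted p 0.0569 to 0.137), and the Retnla call without candesartan array 2 (0.0771). Both ended when dim probe sets were kept (0.0839 for Retnla and 0.122 for Mgl2). Clec10a was at 0.04 (adjusted p 0.938) and Arg1 at 1.75 (0.229).

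With telmisartan, 0 of 4 were called against chow, where 8.44% of all genes were. The arrays of all 4 did not overlap those of chow, as for 47.6% of all genes. Retnla was 0.64 lower (95% CI -1.16 to -0.12, adjusted p 0.124 by limma) and Mgl2 0.70 lower (-1.49 to 0.09, 0.255), while Clec10a was 0.70 higher (0.27 to 1.13, 0.0557) and Arg1 2.01 higher (0.29 to 3.73, 0.144). Retnla passed under quantile normalization (adjusted p 0.0491), without scaling (0.0382) and with the replicate number as a block (0.0436), and was at -0.82 without telmisartan array 1 and at -0.45 without array 2. Mgl2 was at -1.34 without telmisartan array 1 (adjusted p 0.00346) and at -0.06 without array 2. Clec10a was at 0.84 without telmisartan array 1 (0.0373), and for Arg1 the difference was 3.41 (0.01) or 0.61 when chow array 2 or 1 was dropped.

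The genes whose pattern over the 8 arrays was most like each marker were found by the root mean square (RMS) difference of log2 signals, each gene centred on its own mean. For Retnla they were Ms4a8a (RMS difference 0.235), the aminoacylase gene Acy1 (0.275) and Cd163 (0.280). Among all 11231 other genes, Mgl2 came at rank 5 from Retnla and Retnla at rank 4 from Mgl2 (0.295). For Mgl2 the nearest were the lectin gene Cd209a (0.198), the amino acid transporter gene Slc38a3 (0.271) and Cd209g (0.289). Cd209a was at 308 and 113 on the telmisartan arrays, which were among the 8 that chose it.

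Counted from Clec10a, its neighbour Mgl2 came at rank 10976 of 11231, and counted from Mgl2, Clec10a came at rank 5604 (RMS difference 0.855). The measure grows with the size of a change, so strongly changing genes lie far from a gene that varies little. Clec10a was nearest to Cyp4f18 (0.109), C2cd2 (0.131) and Il18bp, which encodes an interleukin 18 binding protein (0.145). Arg1 had no gene as close: its nearest were Plppr3 (0.485), Pla2g7 (0.507) and Angptl4 (0.546), which shared its low value on chow array 1. Only 8 arrays in 4 groups enter this measure, so it says that values ran alike on these arrays and nothing on shared control.

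**Figure D4:**
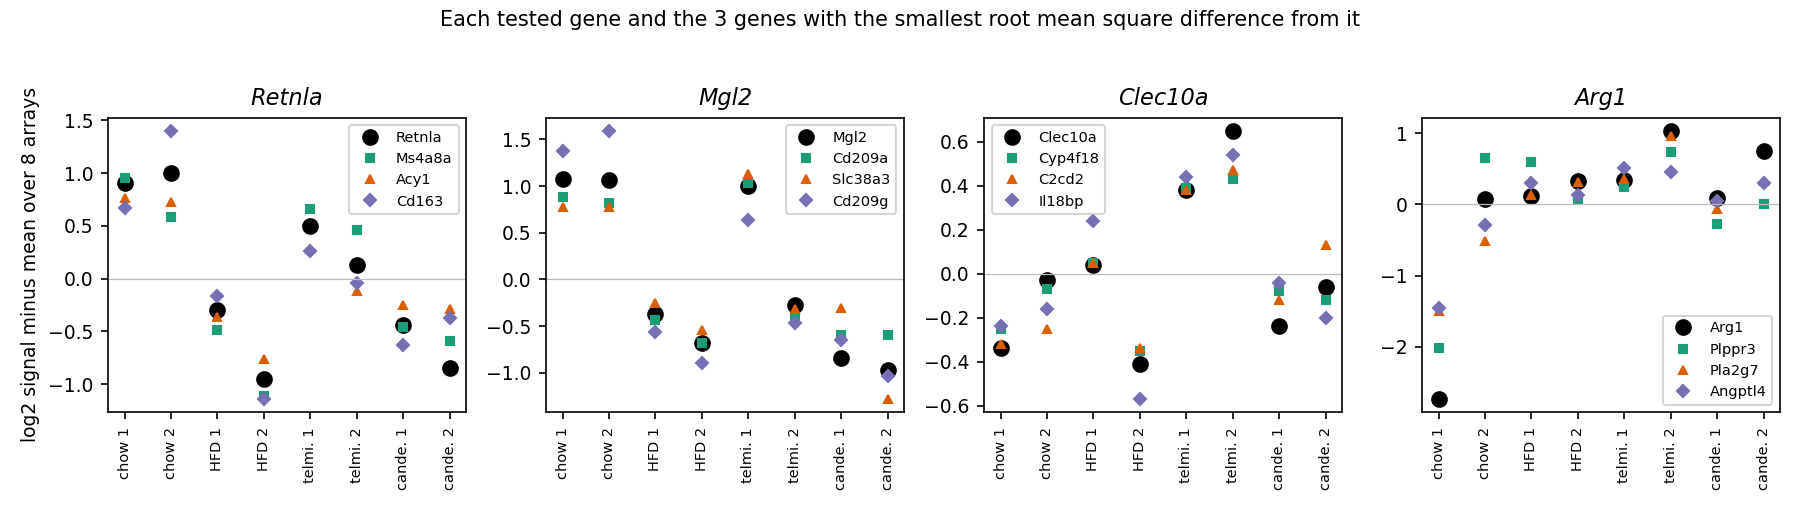
Log2 signal minus its mean over the 8 arrays (vertical axis, a separate scale per panel) for each tested marker and its 3 nearest genes, array by array along the horizontal axis. Mgl2 and Cd209a are about as high on telmisartan array 1 (1.0 and 1.03) as on the chow arrays (1.07 and 1.06, 0.88 and 0.82) and low on array 2 (-0.27 and -0.42), and Arg1 and its nearest genes are lowest on chow array 1.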

How the data were processed

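Each deposited value is the linear intensity (signal) of a probe set on an Affymetrix mouse expression array, which the authors obtained from the scans in the GeneChip Analysis Suite, per the series design text. The sources used here give no summary algorithm, scaling or scan dates. The table held 45101 probe sets, 64 of them array controls, 8 arrays and 0 columns of other samples. Groups and replicate numbers were taken from the sample titles. The members and gene lists were chosen with earlier results of these data known.

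Each array was multiplied to reach the same 2%-trimmed mean. Signals under the 20th percentile (6.695) were raised to it before log2. Probe sets at or above the 50th percentile of the mean log2 signal were kept (22519), and the brightest probe set with 1 gene symbol stood for its gene (11232 genes). Symbols came from the platform annotation, where 34945 probe sets other than controls have 1 symbol and 932 several. Of 34958 with 1 symbol, controls included, an updated gene table held 34754 and changed 0 symbols.

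The tests used limma 3.58.1 (R 4.3.3; 4 group means, 4 residual degrees of freedom, variances moderated with an intensity trend), two-sided, with Benjamini-Hochberg adjustment over all genes and 95% confidence intervals, and the script was tested on simulated data. Precision is limited by the 2 arrays per group, for which the smallest exact two-sided permutation p is 0.333. Named genes were the 5 markers, Adgre1, Mrc1, Cd163, up to 3 genes per list with the smallest p in HFD against chow, and the 3 nearest genes of each tested marker. Most others are marked. Adipoq, Alox15, Flt3, Ccl17, Ccl22, Nos2, Arg2, Retnlb, Chil4, Gata3, Il1rl1 and Il5 also fall outside this rule and are not marked where they appear. Values were recomputed in 21 alternative settings. Figures were drawn with matplotlib 3.10.9.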

Additional observations from a re-analysis of the deposited data

How the results depend on the processing

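The 24 member differences were recomputed in 21 settings, 8 of which left out 1 array. Of 498 values, 459 kept their direction and side of the threshold, and the filter at the 70th percentile gave none for Arg1 (6 values). Most of the 24 were not called in the first place, so that count says little on how firm the calls are. In the 13 settings with all arrays kept, HFD against chow stayed called in 12 for Retnla and in 11 for Mgl2. Candesartan against chow stayed called in 12 for each of these genes. With dim probe sets kept, HFD against chow was -1.58 for Retnla and -1.59 for Mgl2, and candesartan against chow -1.60 and -1.97, none of them called. Without the variance trend Mgl2 in HFD against chow was -1.59 and not called. Telmisartan against chow was called for Retnla at -0.80 with quantile normalization, -0.99 without scaling and -0.64 with the replicate block. Signs turned for Clec10a in HFD against chow (0.03, quantile normalization) and in candesartan against chow (-0.06, no scaling), and for Retnla in candesartan against HFD (0.14 with median centring, 0.01 without scaling). The ILC2 gene Rora in HFD against chow was -0.00 without scaling.

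Leaving out 1 array gave these ranges in HFD against chow: -1.90 to -1.26 for Retnla, -1.74 to -1.43 for Mgl2, -0.23 to 0.22 for Clec10a, 0.15 to 2.95 for Arg1, -1.01 to 0.13 for Klrg1, -0.08 to 0.31 for Rora and -0.70 to 0.09 for Krt18. In candesartan against HFD they were -0.34 to 0.30 for Retnla, -0.19 to 0.26 for Clec10a and -0.13 to 0.53 for Arg1, and in telmisartan against candesartan -0.08 to 0.61 for Arg1. Against chow they were, with telmisartan, 0.55 to 0.85 for Clec10a, -1.34 to -0.06 for Mgl2 and 0.61 to 3.41 for Arg1, and with candesartan -1.81 to -1.39 for Retnla, -0.12 to 0.19 for Clec10a, -2.03 to -1.90 for Mgl2 and 0.34 to 3.15 for Arg1. Relative to the macrophage mean they were -1.76 to -1.29 for Clec10a and -1.26 to 1.32 for Arg1 in HFD against chow, 0.38 to 1.5 for Retnla, 0.46 to 0.94 for Clec10a and -0.13 to 1.89 for Mgl2 in telmisartan against HFD, and -0.13 to 0.34 for Clec10a in candesartan against HFD.

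Counts of all genes called in HFD against chow were 909, 572 with median centring, 174 with dim probe sets kept and 164 to 1624 when an array was left out. In telmisartan against chow they were 948, 2045 without scaling, 332 with dim probe sets, 198 with only the 2 groups compared and 533 to 1674 without an array, and in candesartan against chow 740, 164 with dim probe sets and 117 to 1324 without an array. With dim probe sets kept, 4 genes were called in telmisartan against HFD, 6 in candesartan against HFD and 6 between the drugs, and 1 between the drugs without scaling, where 0 had been. The causes were not tested. At least 2 of the 3 nearest genes stayed among the nearest 10 in 19 of 21 settings for Retnla, 20 of 21 for Mgl2, 20 of 21 for Clec10a and 17 of 20 for Arg1.

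Replicate numbers pair no mice in the sources, and same-numbered arrays deviated together only weakly (correlation across genes -0.041 to 0.206). With the replicate block 1280 genes were called in HFD against chow, and Retnla (-1.58) and Mgl2 (-1.59) stayed called. Signal over background limits Arg1 and Chil3.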
